A study of Mus musculus with 9 samples.

Results

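Gr-1+ and Gr-1- monocytes of mouse blood were compared over the 9 libraries analysed here. They were assigned by their titles: 4 libraries are named Gr+CD11b+ and 5 are named Gr-CD11b+. Of 23234 gene symbols in the deposited files, 10521 had a mean of at least 1 FPKM (fragments per kilobase of transcript, scaled to all mapped fragments of the library) over the 9 libraries, and the 10436 of these with a value above 0 in at least 2 libraries were tested. All mice were C57BL/6, 8 months old and carried Yaa, a duplicated segment of the X chromosome on the Y chromosome that holds Tlr7 and worsens lupus-like disease. Mice labelled null here were Fcgr2-/-, and the others had a floxed Fcgr2 (fl/fl) with CD19Cre, CEBPaCre, CD11cCre or no Cre (labelled floxed). CD19Cre is active in B cells, CEBPaCre in myeloid cells and their progenitors, and CD11cCre in dendritic cells and other cells that express Itgax. The Gr-1+ libraries were 1 each of CD19Cre and CEBPaCre and 2 of null, and the Gr-1- libraries were 1 each of CD11cCre, CD19Cre, CEBPaCre, floxed and null. Each library was made from sorted cells with Trizol and the SMART-Seq v4 kit, and the labels do not say whether cells of several mice were pooled. In the sentences that follow, values of single libraries are given in the order CD19Cre, CEBPaCre, null replicate 1 and null replicate 2 for Gr-1+, and CD11cCre, CD19Cre, CEBPaCre, floxed and null for Gr-1-.

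Blood monocytes of the mouse fall into a classical subset, marked by high Ly6C and CCR2, which leaves the bone marrow through CCR2 and enters inflamed tissue, and a nonclassical subset, marked by low Ly6C and high CX3CR1, which patrols the vessel wall. The antibody to Gr-1 binds Ly6C and Ly6G. The sort thus rests on both antigens, and the Gr-1+ cells need not be classical monocytes alone. Nonclassical monocytes arise from classical ones under the control of the nuclear receptor Nr4a1. The marker genes of both subsets are well known, and the results below are ordered by gene families and pathways, some members of which are also in the marker lists. Of the genes named with their families, Bcl2, Dusp5, Hes1, Klf2, Slc12a2 and Tgfbr3 are in the list of nonclassical monocytes, Thbs1 in that of classical monocytes, Cebpe, Il1r2 and Stfa2l1 in that of neutrophils, Batf3 in that of dendritic cells and Il2rb in that of natural killer cells.

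The files hold no read counts. Relative depth was taken from the most common ratio of the lowest values shared with the floxed library. It lay between 0.707 (null Gr-1+ replicate 1) and 2.64 (CD19Cre Gr-1-). In the libraries other than floxed, 16.2% to 31.9% of the ratios lay in 3 bins of 0.05 on the log2 scale around that value. The depths are therefore rough. Genes for ribosomal proteins held 2.08% and 2.38% of the summed FPKM in the CD19Cre libraries and 3.84% to 8.05% in the other 7. The summed level of 21 genes of natural killer cells was 2.47 to 8.32 FPKM in Gr-1+ libraries, with 5 to 13 members at 0, and 46.7 (null) to 919 FPKM (CD11cCre) in Gr-1- libraries. The summed level of 26 genes of neutrophils and their precursors was 799 to 2447 FPKM in Gr-1+ libraries, with 0 or 1 member at 0, and 99.7 to 225 FPKM in Gr-1- libraries, with 7 to 11 members at 0. Most of this sum in Gr-1+ libraries was S100a8 (380 to 1423 FPKM) and S100a9 (148 to 413 FPKM). Ngp (9.80 to 210 FPKM) and Camp (6.11 to 38.9 FPKM) held less of it. The sum is therefore no measure of a share of neutrophils. The sum over 15 B cell genes was 13.5 to 75.9 FPKM in Gr-1+ and 76.8 to 199 FPKM in Gr-1- libraries. The part of these cells in the results below was not tested. In bulk libraries, fewer cells of a type and less RNA per cell cannot be told apart. Nothing in the labels says that libraries came from separate mice, so that p-values measure only the spread between libraries.

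The 4 markers Ly6c2, Ccr2, Itgax and Fcgr4 followed the sort. Ly6c2, which encodes the Ly6C antigen, was at 332, 1809, 731 and 1104 FPKM in Gr-1+ and 44.6, 22.5, 32.5, 46.6 and 8.27 FPKM in Gr-1-. Ccr2, the chemokine receptor for exit from the bone marrow, was at 718, 485, 539.6 and 465 FPKM in Gr-1+ and 49.9, 62.0, 28.6, 21.5 and 28.2 FPKM in Gr-1-. Itgax (CD11c) was at 1.03, 1.57, 4.10 and 1.56 FPKM in Gr-1+ and 301, 37.9, 66.0, 33.8 and 36.2 FPKM in Gr-1-. Fcgr4, an activating receptor for IgG, was at 46.5, 22.6, 77.7 and 35.1 FPKM in Gr-1+ and 512, 406, 427, 387 and 594 FPKM in Gr-1-. The libraries of the subsets did not overlap for any of these 4 genes, and the highest Itgax value lay in the library labelled CD11cCre. Cx3cr1 was at 78.2 to 137 FPKM in Gr-1+ and 107 to 184 FPKM in Gr-1-, and did not pass the limma test described next (adjusted p = 0.144). Of 30 listed classical genes, 21 passed it toward Gr-1+, 1 toward Gr-1- and 8 not at all. Of 39 listed nonclassical genes, 32 passed it toward Gr-1-, none toward Gr-1+ and 7 not at all. Fcgr2b, the gene that the genotypes target, was at 195, 148, 201 and 106 FPKM in Gr-1+ and 92.9, 105, 83.0, 74.9 and 145 FPKM in Gr-1-, and did not pass the test described next (adjusted p = 0.114). The libraries labelled null were not low, and a per-gene value covers exons outside any deletion too, so that it checks no label and genotypes are used here only as names.

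Across all tested genes, 1544 (14.8%) passed a Benjamini-Hochberg adjusted p of 0.05 in limma, fitted to log2(FPKM + 1), and such genes are called below. Toward Gr-1+ there were 923 of them (8.84% of the tested genes), and toward Gr-1- 621 (5.95%). A fold here is the ratio of the geometric means of FPKM + 1, which understates the change of low genes. The difference was at least 2-fold for 594 genes toward Gr-1+ and 426 toward Gr-1-, at least 8-fold for 43 and 49, and at least 16-fold for 21 and 10. The libraries of the subsets did not overlap for 1717 genes (16.5%), of which 1370 were called. When each of the 9 libraries was left out in turn, 982 of the 1544 genes were called in all 9 fits.

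The 15 largest differences toward Gr-1+ outside the marker lists included those of Ccr1, Tarm1 and Ms4a8a. Ccr1, a receptor for inflammatory chemokines, was at 41.3, 12.6, 56.4 and 27.1 FPKM in Gr-1+ and 0.45, 1.47, 0.31, 0.453 and 1.05 FPKM in Gr-1-, 18.3-fold higher in Gr-1+ (adjusted p = 3.55e-05). Tarm1, an activating receptor of myeloid cells that signals through the Fc receptor gamma chain, was at 38.4, 13.7, 27.9 and 12.6 FPKM in Gr-1+ and 0, 1.71, 0.0772, 0.351 and 0.406 FPKM in Gr-1-, 15.5-fold higher in Gr-1+ (adjusted p = 4.62e-05). Ms4a8a, a membrane protein of the MS4A family, was at 46.6, 43.1, 70.5 and 51.4 FPKM in Gr-1+ and 1.35, 3.90, 1.39, 3.16 and 3.59 FPKM in Gr-1-, 15.1-fold higher in Gr-1+ (adjusted p = 1.04e-05). In each case the highest Gr-1- value was that of CD19Cre. Capg, which caps the barbed ends of actin filaments, was at 904, 459, 264 and 288 FPKM in Gr-1+ and 22.0, 91.0, 18.2, 29.3 and 17.3 FPKM in Gr-1-, 14.3-fold higher in Gr-1+ (adjusted p = 0.000424). Anxa3, a calcium-dependent binder of phospholipids, was at 46.0, 48.9, 33.7 and 33.1 FPKM in Gr-1+ and 2.08, 5.10, 3.09, 1.99 and 4.46 FPKM in Gr-1-, 9.79-fold higher in Gr-1+ (adjusted p = 1.56e-05). Atrnl1, a relative of attractin, had the smallest standard error of the 15, at 8.82, 13.4, 12.5 and 14.5 FPKM in Gr-1+ and 0.0168, 0.654, 0.574, 0.498 and 0.766 FPKM in Gr-1-, a log2 difference of 3.15 ± 0.21 (SE). Every Gr-1- library was far below every Gr-1+ library for Anxa3 and Atrnl1, and the CD19Cre library had the highest Gr-1- value of Capg and Anxa3.

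Several of the 15 encode secreted proteins. Slpi, an inhibitor of neutrophil elastase, was at 169.9 to 250.5 FPKM in Gr-1+ and 14.0 to 52.5 FPKM in Gr-1-, 9.55-fold higher in Gr-1+ (adjusted p = 9.89e-05). Ecm1, a protein of the extracellular matrix, was at 37.0 to 149 and 1.96 to 12.5 FPKM, and Spink2, a serine protease inhibitor, at 8.22 to 31.3 and 0 to 1.62 FPKM. Chi3l4, a chitinase-like lectin, ranged from 38.0 to 607 FPKM in Gr-1+ and from 1.2 to 21.6 FPKM in Gr-1-, 29.7-fold higher in Gr-1+ (adjusted p = 0.00261), and 48.8-fold without the CEBPaCre Gr-1+ library, its lowest in that subset. Chi3l4 is nearly identical in sequence to Chi3l3, which is in the marker lists, so that the share of each is uncertain. The scavenger receptor Msr1 (9.76-fold), the cyclic ADP-ribose enzyme Bst1 (9.53-fold), the homeodomain-only protein Hopx (9.17-fold), the stress-responsive Ndrg1 (8.96-fold) and Nt5dc2 (13.8-fold) completed the 15.

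Toward Gr-1-, the 15 genes chosen in the same way included Ets1 and Ikzf3. Ets1, an ETS transcription factor known from lymphocytes, was at 1.38, 0.587, 2.62 and 0.801 FPKM in Gr-1+ and 42.5, 39.4, 38.9, 19.2 and 26.9 FPKM in Gr-1-, 14.9-fold higher in Gr-1- (adjusted p = 1.47e-05). Ikzf3 (Aiolos), a zinc finger factor also known from lymphocytes, was at 0, 0.497, 1.01 and 0.585 FPKM in Gr-1+ and 27.9, 16.1, 27.7, 14.5 and 18.7 FPKM in Gr-1-, 14.4-fold higher in Gr-1- (adjusted p = 9.44e-06). The null Gr-1- library, which had the lowest summed level of natural killer genes, was at 26.9 FPKM of Ets1 and 18.7 FPKM of Ikzf3, and the part of natural killer cells was not tested. Adrb1, the beta-1 adrenergic receptor for catecholamines, was at 0, 0.267, 1.56 and 0.821 FPKM in Gr-1+ and 24.6, 15.3, 18.3, 15.5 and 27.5 FPKM in Gr-1-, 13.3-fold higher in Gr-1- (adjusted p = 1.57e-05). Tgm2, the transglutaminase that crosslinks proteins, was at 10.2, 5.81, 16.4 and 8.05 FPKM in Gr-1+ and 161, 165, 159, 97.7 and 121 FPKM in Gr-1-, 13.3-fold higher in Gr-1- (adjusted p = 1.47e-05). Lilra5, an activating receptor of the leukocyte immunoglobulin-like receptors, was at 3.19, 4.17, 8.96 and 3.31 FPKM in Gr-1+ and 64.5, 79.9, 79.3, 51.4 and 59.1 FPKM in Gr-1-, 12.1-fold higher in Gr-1- (adjusted p = 1.47e-05). For all of these the lowest Gr-1- library was at several times the level of the highest Gr-1+ library.

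Bcl2a1b and Dusp16, also among these 15, are described with their families. Bcl2a1a and Bcl2a1d, copies of Bcl2a1b, are in the marker lists. Phlda3, a target of p53 that restrains Akt, was at 1.74, 0.564, 1.63 and 1.38 FPKM in Gr-1+ and 20.9, 55.2, 25.6, 19.1 and 27.2 FPKM in Gr-1-, 12.5-fold higher in Gr-1- (adjusted p = 2.1e-05). Ltb (lymphotoxin beta) was at 4.51 to 9.90 FPKM in Gr-1+ and 77.7 to 107 FPKM in Gr-1-, and S1pr5, a receptor for sphingosine 1-phosphate, at 11.5 to 19.3 and 115 to 206 FPKM. Tmem26, Smagp and Slamf9 were 10.6-, 10.5- and 9.58-fold higher in Gr-1-. Spag11b, which encodes an epididymal defensin-like peptide, was listed at 0 in all 4 Gr-1+ libraries and at 12.4, 9.82, 11.6, 3.36 and 12.4 FPKM in the Gr-1- libraries. Ear12, a ribonuclease of the eosinophil-associated family, was 10.4-fold higher in Gr-1- (adjusted p = 0.0197) and 4.87-fold without the CD19Cre Gr-1+ library, where it was at 0.445 FPKM against 14.8 to 42.8 FPKM in the other Gr-1+ libraries. Ear genes are near-identical copies, and the sum of Ear1, Ear2, Ear6, Ear10 and Ear12 was 41.4 FPKM in that library. All of these but Ear12 are in the marker lists.

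**Figure D1:**
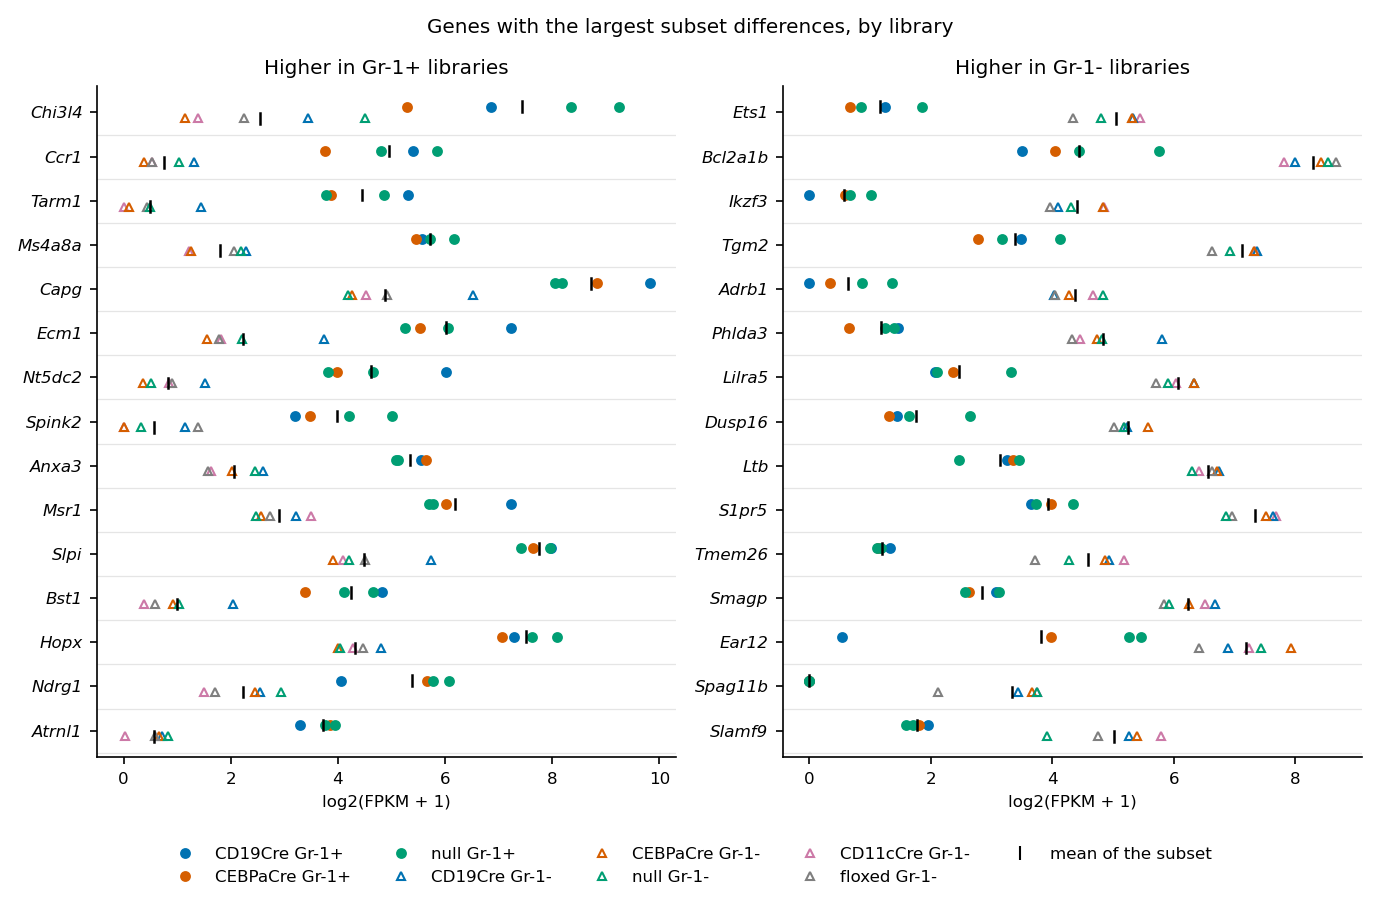
Expression in each library, as log2(FPKM + 1) on the horizontal axis, of 15 genes per direction. They had the largest subset difference among the called genes that were eligible, without predicted genes and small RNAs. Filled circles are Gr-1+ libraries, open triangles are Gr-1- libraries, colours are genotypes and black bars are subset means. Genes were chosen to have no overlap of circles and triangles. Ear12 in the CD19Cre Gr-1+ library (0.445 FPKM) sits apart from the other circles.

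Promoter sequence was available in RefSeq (GRCm38.p6) for 21 of these 30 genes, and is shown for the first 2 of each direction that have an entry, so that the letters behind the motif counts can be read. Each line gives the 250 bases before the annotated start site in the direction of the gene. Capitals mark exact matches, on either strand, to the letters TTGCNNAA (C/EBP), AGGAAGT (PU.1), TGANTCA (AP-1), TGTGGTT (RUNX) or CCACNCCC (KLF). Chi3l4 lies at chr3:106219480-106219729 on the minus strand, with a C/EBP match at -131 and a PU.1 match at -89 from the start site. Ccr1 lies at chr9:123968693-123968942 on the minus strand, with no match. Bcl2a1b lies at chr9:89199023-89199272 on the plus strand, with an AP-1 match at -164 and a PU.1 match at -147. Adrb1 lies at chr19:56721867-56722116 on the plus strand, with KLF matches at -147 and -63.
Chi3l4: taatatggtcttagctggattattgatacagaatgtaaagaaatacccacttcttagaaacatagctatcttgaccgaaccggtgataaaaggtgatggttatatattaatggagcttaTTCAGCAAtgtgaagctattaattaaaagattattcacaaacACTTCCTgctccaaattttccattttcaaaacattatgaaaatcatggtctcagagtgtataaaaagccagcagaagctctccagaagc
Ccr1: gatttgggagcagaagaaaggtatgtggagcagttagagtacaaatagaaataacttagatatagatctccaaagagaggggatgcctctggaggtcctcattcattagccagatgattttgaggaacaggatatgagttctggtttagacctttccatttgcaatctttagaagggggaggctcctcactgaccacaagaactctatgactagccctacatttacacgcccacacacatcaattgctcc
Bcl2a1b: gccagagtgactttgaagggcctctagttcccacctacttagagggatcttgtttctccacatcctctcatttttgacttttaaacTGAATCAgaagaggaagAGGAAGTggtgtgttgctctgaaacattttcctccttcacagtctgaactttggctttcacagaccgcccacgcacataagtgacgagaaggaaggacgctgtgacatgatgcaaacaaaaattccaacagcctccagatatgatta
Adrb1: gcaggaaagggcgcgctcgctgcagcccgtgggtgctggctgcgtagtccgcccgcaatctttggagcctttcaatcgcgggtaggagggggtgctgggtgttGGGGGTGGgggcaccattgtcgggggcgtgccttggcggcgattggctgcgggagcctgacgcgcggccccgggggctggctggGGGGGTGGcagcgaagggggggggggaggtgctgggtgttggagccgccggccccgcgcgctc

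The same windows were searched over the called genes, as a description with no test. The PU.1 letters, bound by ETS factors of that type, occurred in 11.5% of 742 promoters of genes called toward Gr-1+, 12.1% of 472 promoters of genes called toward Gr-1-, 8.45% of 8236 promoters of tested genes and 7.80% of all 27025 promoters. The AP-1 letters occurred in 7.55%, 6.14%, 4.33% and 6.87% of these sets, and the C/EBP letters in 9.70%, 9.11%, 7.66% and 9.55%. Shares of these motifs were thus near each other in both directions. The palindrome CACGTG (E-box), bound by basic helix-loop-helix factors, occurred in 10.1% of promoters of genes higher in Gr-1+ and 5.08% of those higher in Gr-1-, against 8.77% of tested genes. Of all motifs searched, its shares lay furthest apart between the directions, and no test was made. For the KLF letters the shares were 23.2%, 21.4%, 20.8% and 15.8%, and for the RUNX letters 3.5%, 3.81%, 3.19% and 4.46%. The other motifs searched had these shares toward Gr-1+ and Gr-1-. They were 58.0% and 54.0% for SP1, 37.5% and 37.3% for the CCAAT box, and 7.41% and 7.63% for the TATA box. For IRF they were 4.85% and 4.03%, and for E2F 1.35% and 1.27%. For NR4A they were 0.674% and 1.06%, and for NF-kappa-B 0.809% and 1.06%.

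Nearly all genes called without a genotype differed in the same direction within it. For this comparison genes were called without a genotype, and its own libraries were then read as values with no test. Without the null libraries, 681 genes (6.55% of those tested) were called, and 677 of them (99.4%) differed in the same direction within null. Without the CEBPaCre libraries, 783 genes (7.52%) were called, and all 783 had the same direction within CEBPaCre. Without the CD19Cre libraries, 1660 genes (15.9%) were called, and 1591 (95.8%) had the same direction within CD19Cre. Over all tested genes, called or not, the share in the same direction was 79.7% for null, 79.4% for CEBPaCre and 73.5% for CD19Cre. The 1 called gene that lay at least 2-fold in the opposite direction was Rpl34-ps1 in CD19Cre, a pseudogene of a ribosomal protein.

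**Figure D2:**
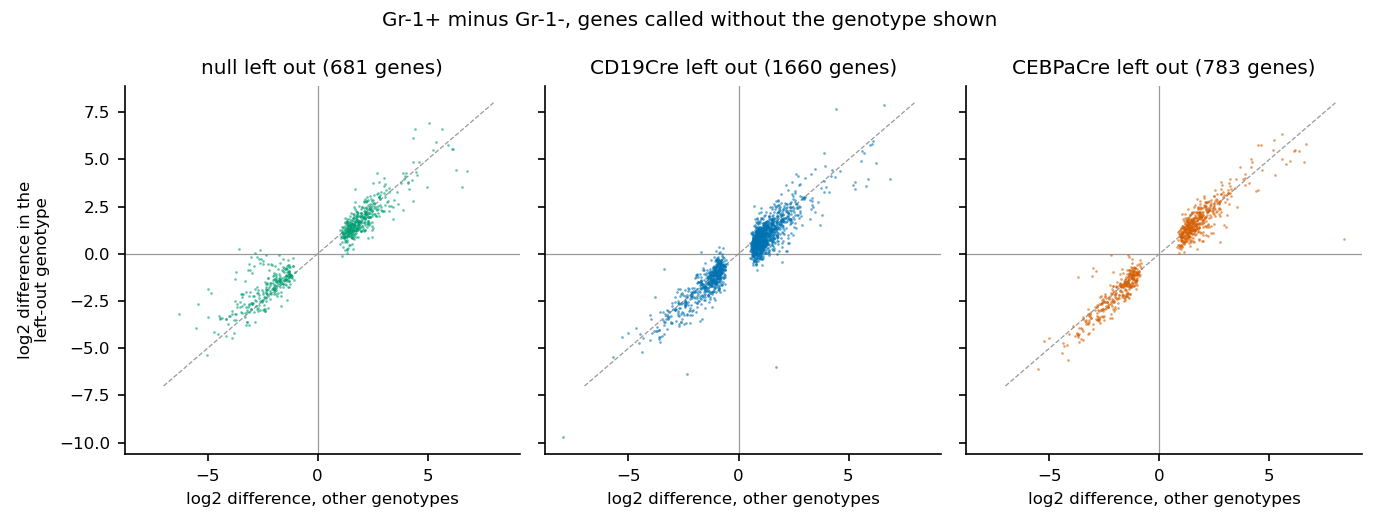
Log2 difference (Gr-1+ minus Gr-1-) fitted without 1 genotype on the horizontal axis, against the difference within that genotype on the vertical axis, for the genes called without it. Each point is a gene and the dashed line marks equal values. Points fall in the lower left and upper right sectors for 677 of 681 genes in null, 1591 of 1660 in CD19Cre and 783 of 783 in CEBPaCre.

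Within single genotypes, 7310 genes had a mean of at least 5 FPKM, and their differences rest on 1 library against 1, or on 2 against 1 in null, with no test. At least 2-fold differences were seen for 969 genes (13.3%) in null, 1120 (15.3%) in CD19Cre and 1043 (14.3%) in CEBPaCre. The 2 null Gr-1+ libraries differed from each other at least 2-fold for 281 genes (3.84%). In all 3 genotypes at once, 303 genes were at least 2-fold higher in Gr-1+ and 261 in Gr-1-, and 82 and 97 were at least 4-fold higher. At least 2-fold differences in opposite directions occurred for 22 genes between null and CD19Cre, 22 between null and CEBPaCre and 15 between CD19Cre and CEBPaCre. Direction was weighted differently: in null and CEBPaCre more genes were 2-fold higher in Gr-1+ (600 and 594) than in Gr-1- (369 and 449), and in CD19Cre fewer (515 against 605). Across genes, the differences ranked alike in null and CEBPaCre (Spearman correlation 0.84 over 7310 genes) and less so with CD19Cre (0.66 with each), a description in which genes are not independent replicates.

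Called genes were then located in 87 lists of gene families and pathways. The lists together held 2583 distinct tested genes, of which 405 (15.7%) were called, near the 14.8% of all tested genes. Of the lists, 23 had called members only toward Gr-1+, 11 only toward Gr-1-, 48 in both directions and 5 none. The split depended on the scaling: after quantile normalization or median ratio scaling 15 lists had called members only toward Gr-1+, 12 only toward Gr-1-, 56 in both directions and 4 none. The 5 lists with none were Krueppel-like factors (10 tested), STAT factors (7), IRF factors (8), the pentose phosphate pathway (9) and splicing factors (92), of which the splicing factors had 2 or 3 members called toward Gr-1- under those scalings. With genotype as a block, 2712 of all 10436 tested genes were called, and 0 lists had none. Called there were 3 of 7 STAT factors, 3 of 8 IRF factors and 2 of 10 Krueppel-like factors. Of the pentose phosphate genes 2 of 9 were called there, and of the splicing factors 6 of 92. The share called was above the 14.8% background in 56 lists, and at least 2 times the background in 21. Counts of called members below are to be read against this background, with 8.84% toward Gr-1+ and 5.95% toward Gr-1-.

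**Figure D3:**
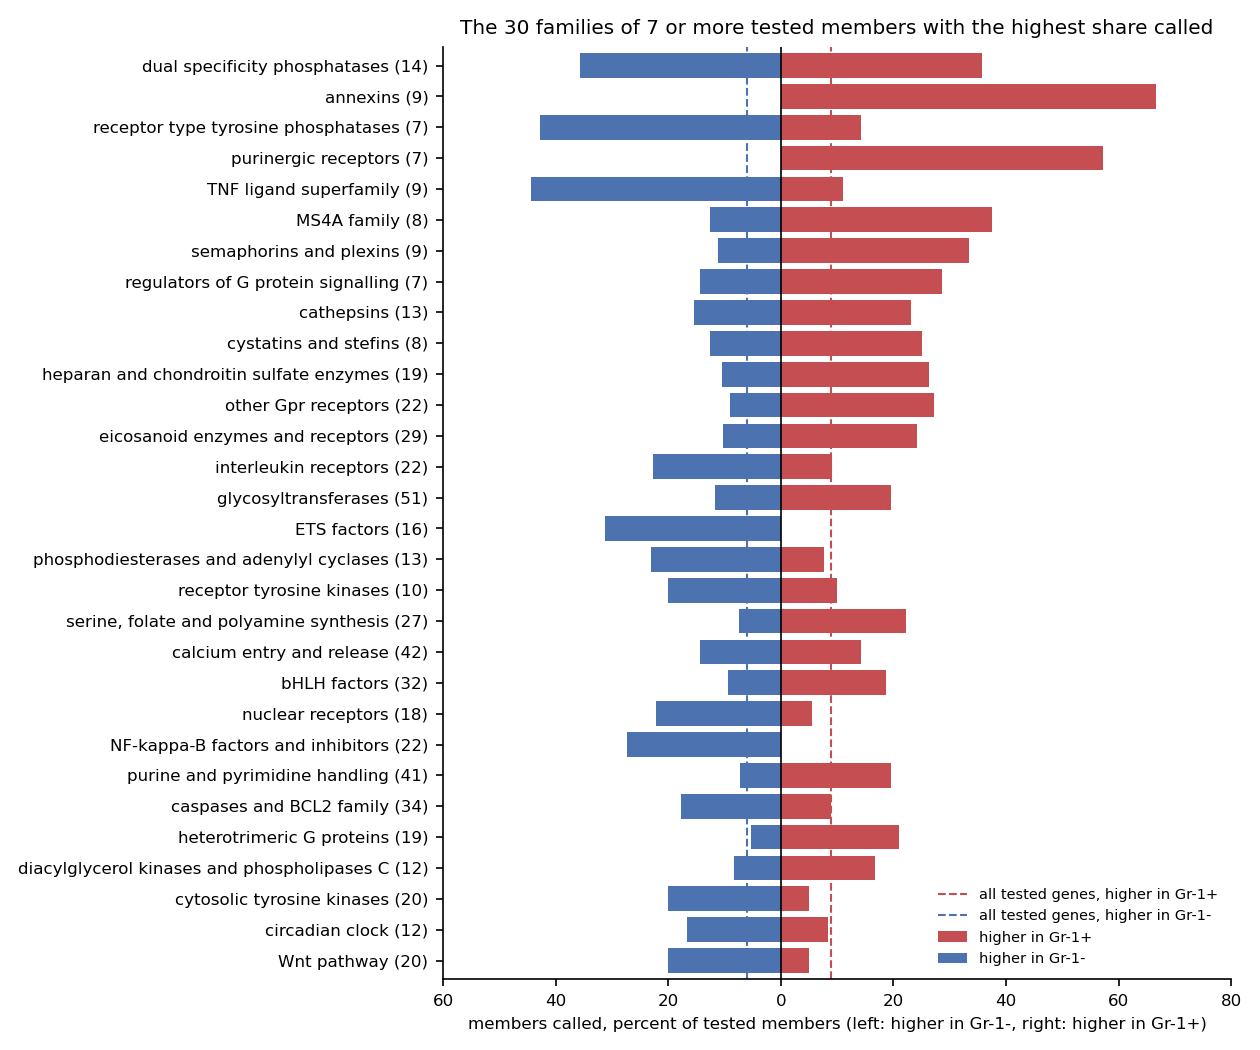
Percent of tested members called toward Gr-1+ (red, right) and toward Gr-1- (blue, left) for the 30 families of at least 7 tested members with the highest share called. Dashed lines mark all tested genes (8.84% and 5.95%). Dual specificity phosphatases have long bars on both sides, annexins and purinergic receptors only to the right, and ETS and NF-kappa-B factors only to the left.

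ETS factors, which include PU.1 and control myeloid and lymphoid genes, had 5 of 16 tested members higher in Gr-1- and none higher in Gr-1+. This was 31.25%, against 5.95% of all tested genes toward Gr-1-. All 5 were called with each library left out. Beside Ets1, Ets2 was at 4.54, 2.28, 5.37 and 2.68 FPKM in Gr-1+ and 41.3, 23.2, 33.0, 15.4 and 19.3 FPKM in Gr-1-, 5.70-fold higher in Gr-1- (adjusted p = 0.000284). Spic, known as a factor of red pulp macrophages that handle heme iron, was at 2.68, 4.03, 7.43 and 2.53 FPKM in Gr-1+ and 16.4, 33.8, 22.6, 17.8 and 43.6 FPKM in Gr-1-, 5.38-fold higher in Gr-1- (adjusted p = 0.000701). Etv5 (2.42-fold) and Spib (2.06-fold), the other 2, were low in both subsets, with no Gr-1- library above 3 FPKM. The libraries of the subsets did not overlap for any of the 5.

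The NF-kappa-B list, the factors of inflammatory gene induction with their inhibitors, had 6 of 22 members higher in Gr-1- and none higher in Gr-1+. This was 27.3%, against 5.95% of all tested genes toward Gr-1-. Most of the 6 encode inhibitors or their binding partners. Tnip1, which restrains NF-kappa-B together with A20, was at 31.9, 29.9, 33.2 and 17.8 FPKM in Gr-1+ and 88.6, 109, 81.8, 64.5 and 77.4 FPKM in Gr-1-, 2.96-fold higher in Gr-1- (adjusted p = 0.00105). Nfkbid was 2.25-fold, Tnip3 2.42-fold and Nfkbie 1.86-fold higher in Gr-1-, each with no overlap. Nfkb1, the subunit p105/p50, was the factor itself among them, at 31.5 to 39.2 FPKM in Gr-1+ and 50.7 to 83.7 FPKM in Gr-1-, 1.86-fold higher in Gr-1- (adjusted p = 0.0125).

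Basic helix-loop-helix factors went both ways, with 6 of 32 higher in Gr-1+ and 3 in Gr-1-. Tfec and Mitf, relatives that bind the same E-box letters and act in macrophage and osteoclast genes, were both higher in Gr-1+. A link of these factors to the E-box shares above was not tested. Tfec was at 5.98, 4.91, 9.77 and 4.85 FPKM in Gr-1+ and 0, 0.126, 0.148, 0.336 and 0.259 FPKM in Gr-1-, 6.11-fold higher in Gr-1+ (adjusted p = 1.84e-05). Mitf was at 1.89 to 4.13 and 0.546 to 1.39 FPKM, 2.45-fold higher in Gr-1+ (adjusted p = 0.00243). Ahr, the receptor for aryl hydrocarbons, was at 12.2 to 28.4 and 1.30 to 8.03 FPKM, 3.65-fold higher in Gr-1+ (adjusted p = 0.00657). Toward Gr-1-, Hes1, a repressor downstream of Notch, was at 8.28, 14.1, 15.7 and 9.03 FPKM in Gr-1+ and 94.5, 58.9, 77.1, 85.2 and 42.2 FPKM in Gr-1-, 5.65-fold higher in Gr-1- (adjusted p = 0.000147). Id3, an inhibitor of this family, was at 4.48, 7.34, 15.8 and 15.9 FPKM in Gr-1+ and 52.3, 62.9, 46.1, 46.5 and 32.9 FPKM in Gr-1-, 4.51-fold higher in Gr-1- (adjusted p = 0.00151). Bhlhe40 was at 19.3 to 31.1 and 71.4 to 154 FPKM, 3.58-fold higher in Gr-1- (adjusted p = 0.000705). The Id3 difference was smaller in null, at -1.01 on the log2 scale, than in CD19Cre (-3.54) and CEBPaCre (-2.50), and this was not past the test of a difference between genotypes.

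Among bZIP factors, 3 of 38 were higher in Gr-1+ and 5 in Gr-1- (21.1% called, against 14.8% of all tested genes). Cebpe, the C/EBP factor of granule genes in granulocyte precursors, was at 14.9, 5.61, 5.08 and 4.02 FPKM in Gr-1+ and 0.415, 0.769, 0.619, 0.768 and 0.394 FPKM in Gr-1-, 4.75-fold higher in Gr-1+ (adjusted p = 0.000494). It was highest in the CD19Cre Gr-1+ library. The neutrophil sum stood at 1577 FPKM there, second to null replicate 1, and S100a8 made up 691 FPKM of it. Cebpd was 2.09-fold and Batf3 2.19-fold higher in Gr-1+, and the stress factor Ddit3 (CHOP) 2.51-fold and Jdp2 2.05-fold higher in Gr-1-. Among nuclear receptors, 4 of 18 were higher in Gr-1- and 1 in Gr-1+, and 3 in all were called without null Gr-1+ replicate 2. In the families with no call in the first fit, Irf8, the factor that monocytes need to form, was at 126 ± 44.0 FPKM (SD, n = 4) and 80.8 ± 36.9 FPKM (SD, n = 5). Stat3 was at 102 ± 55.2 and 143 ± 69.8 FPKM and Klf2 at 469 ± 179 and 663 ± 203 FPKM, all with overlapping libraries.

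Dual specificity phosphatases, which remove phosphate from MAP kinases, had 10 of 14 tested members called (71.4%), with 5 in each direction. After quantile normalization or median ratio scaling 8 were called, 3 toward Gr-1+ and 5 toward Gr-1-. Of the 10, 6 were called with each library left out, and 6 were called in all without the CEBPaCre Gr-1- or without the null Gr-1- library. Dusp16, which acts on JNK and p38, was at 1.71, 1.47, 5.24 and 2.11 FPKM in Gr-1+ and 35.5, 36.4, 46.8, 31.4 and 35.3 FPKM in Gr-1-, 11.2-fold higher in Gr-1- (adjusted p = 1.47e-05). Dusp5, which acts on ERK in the nucleus, was at 12.1, 16.4, 20.1 and 13.8 FPKM in Gr-1+ and 248, 118, 227, 135 and 125 FPKM in Gr-1-, 10.0-fold higher in Gr-1- (adjusted p = 2.02e-05). Every Gr-1- library held more of both than any Gr-1+ library. Toward Gr-1+, Dusp22 was at 65.4, 75.0, 76.6 and 64.6 FPKM in Gr-1+ and 25.4, 31.9, 33.2, 31.8 and 26.3 FPKM in Gr-1-, 2.33-fold higher in Gr-1+ (adjusted p = 0.000709). Dusp7 was at 24.7 to 36.6 and 8.14 to 14.1 FPKM, 2.41-fold higher in Gr-1+ (adjusted p = 0.00291), and Dusp18 was 2.83-fold higher in Gr-1+.

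In the MAP kinase cascade, which these phosphatases act on, 8 of 39 members were called (20.5%, against 14.8% of all tested genes). Of these, 7 were called with each library left out. Map3k6 and Mapk6 (ERK3) were 2.69- and 2.53-fold higher in Gr-1+, and Map4k3 and Mapk11 (p38 beta) 2.56- and 2.13-fold higher in Gr-1-. Cytosolic tyrosine kinases had 4 of 20 higher in Gr-1- and 1 in Gr-1+. Fyn, a Src family kinase, was at 22.2, 13.9, 16.2 and 15.8 FPKM in Gr-1+ and 109, 125, 97.9, 67.4 and 82.2 FPKM in Gr-1-, 5.36-fold higher in Gr-1- (adjusted p = 4.23e-05). Ptk2b (Pyk2), a kinase of adhesion signalling, was at 26.3, 62.0, 64.4 and 49.6 FPKM in Gr-1+ and 144, 77.1, 153, 110.4 and 123 FPKM in Gr-1-, 2.45-fold higher in Gr-1- (adjusted p = 0.014). Lck, the Src family kinase of T and natural killer cells, was also called, at 0, 0.218, 0 and 0.287 FPKM in Gr-1+ and 12.9, 5.62, 3.56, 4.38 and 0.381 FPKM in Gr-1-. It was lowest in the null and highest in the CD11cCre Gr-1- library, which also had the lowest and the highest natural killer sum, and the part of those cells in the kinase values was not tested.

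Rhou, Rnd3, Rhof and Rhoc, GTPases of the actin cytoskeleton, were named after their values were seen. Rhou, a Cdc42-like GTPase induced by Wnt, was at 7.22, 4.86, 8.31 and 8.56 FPKM in Gr-1+ and 0.758, 0.707, 0.478, 0.544 and 0.362 FPKM in Gr-1-, 5.18-fold higher in Gr-1+ (adjusted p = 1.78e-05). Rnd3, which loosens actin fibres, was at 83.6, 42.1, 27.8 and 25.3 FPKM in Gr-1+ and 8.85, 17.7, 7.36, 3.18 and 5.12 FPKM in Gr-1-, 4.91-fold higher in Gr-1+ (adjusted p = 0.00515). Rhof, which drives filopodia, was at 3.93, 5.14, 8.03 and 3.46 FPKM in Gr-1+ and 66.3, 62.1, 59.1, 34.2 and 54.0 FPKM in Gr-1-, 9.27-fold higher in Gr-1- (adjusted p = 1.85e-05). Rhoc, known from cell migration, was at 0.455, 0.717, 1.98 and 0.157 FPKM in Gr-1+ and 9.83, 17.4, 17.1, 8.85 and 24.7 FPKM in Gr-1-, 9.09-fold higher in Gr-1- (adjusted p = 0.000104). Rhou and Rnd3 were thus higher in one subset and Rhof and Rhoc in the other, with no overlap for any of the 4.

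Among 69 actin regulators, 5 were higher in Gr-1+ and 7 in Gr-1- (17.4%, near the background of 14.8%). Vasp and Evl, which extend filaments at the leading edge, were both higher in Gr-1-, Vasp at 49.7, 74.5, 72.7 and 63.8 FPKM in Gr-1+ and 124, 168, 154, 188 and 163 FPKM in Gr-1-, 2.43-fold higher in Gr-1- (adjusted p = 0.00154). Evl was at 20.5 to 27.4 and 52.3 to 85.2 FPKM, 2.72-fold higher in Gr-1- (adjusted p = 0.000567). Cyfip2, a subunit of the WAVE complex that starts branched networks, was at 22.6, 15.9, 18.7 and 13.5 FPKM in Gr-1+ and 97.9, 83.3, 101, 46.7 and 57.6 FPKM in Gr-1-, 4.08-fold higher in Gr-1- (adjusted p = 0.000435). Toward Gr-1+, Tmsb10, a thymosin that sequesters actin monomers, was at 1748, 2429, 1894 and 2074 FPKM in Gr-1+ and 553, 548, 541, 939.7 and 299 FPKM in Gr-1-, 3.73-fold higher in Gr-1+ (adjusted p = 0.00158), beside Capg.

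Receptors for extracellular nucleotides leaned toward Gr-1+, with 4 of 7 tested members called and none toward Gr-1-. P2ry1 and P2ry12, receptors for ADP known from platelets, were called with each library left out, and were the only ones called without null Gr-1+ replicate 1 or without the CEBPaCre Gr-1- library. P2ry1 was at 6.94, 5.89, 4.64 and 4.04 FPKM in Gr-1+ and 1.05, 0.58, 0.711, 0.503 and 0.359 FPKM in Gr-1-, 3.86-fold higher in Gr-1+ (adjusted p = 7.18e-05). P2ry12 was at 11.1, 7.01, 7.83 and 5.46 FPKM in Gr-1+ and 0.805, 2.28, 1.2, 0.93 and 2.1 FPKM in Gr-1-, 3.61-fold higher in Gr-1+ (adjusted p = 0.000518). Of 11 tested platelet genes, 2 were called toward Gr-1+ and 1 toward Gr-1-, with a median log2 difference of 0.71 (0.85 in null, 0.08 in CD19Cre and 1.19 in CEBPaCre). The sum over 16 platelet genes was at 23.6 to 60.1 FPKM in Gr-1+ and 13.3 to 51.2 FPKM in Gr-1-, higher in each Gr-1+ library than in the Gr-1- library of its genotype, and its part in the values of P2ry1 and P2ry12 was not tested. Of the other Gpr receptors, 6 of 22 were higher in Gr-1+ and 2 in Gr-1-. Gpr183, the oxysterol receptor EBI2, was at 9.05, 17.8, 12 and 14.1 FPKM in Gr-1+ and 4.39, 3.17, 4.46, 3.91 and 2.49 FPKM in Gr-1-, 3.0-fold higher in Gr-1+ (adjusted p = 0.000707), and Gpr146, Gpr160 and Gpr15 were 4.17-, 5.56- and 4.95-fold higher in Gr-1+.

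Downstream of such receptors, 4 of 19 G protein subunits were higher in Gr-1+ and 1 in Gr-1- (26.3% called, against 14.8% of all tested genes). The gamma subunit Gng2 was at 14.2, 17.4, 18.5 and 17.9 FPKM in Gr-1+ and 3.13, 3.20, 2.49, 2.27 and 3.79 FPKM in Gr-1-, 4.55-fold higher in Gr-1+ (adjusted p = 1.78e-05), whereas the gamma subunit Gngt2 was at 918, 624, 704 and 488 FPKM in Gr-1+ and 1197, 3028, 1558, 1724 and 1429 FPKM in Gr-1-, 2.54-fold higher in Gr-1- (adjusted p = 0.0115), so that these 2 gamma subunits were split between the subsets. Rgs10 and Rgs18, which shorten G protein signals, were 2.94- and 3.73-fold higher in Gr-1+, and Rgs3 was 1.96-fold higher in Gr-1-. Enzymes of cyclic nucleotides also differed in direction. Pde2a, a phosphodiesterase stimulated by cGMP, was at 16.6, 14.0, 8.49 and 8.63 FPKM in Gr-1+ and 3.68, 1.88, 1.26, 1.24 and 0.344 FPKM in Gr-1-, 5.05-fold higher in Gr-1+ (adjusted p = 0.000843). Pde4b, a phosphodiesterase for cAMP, was at 25.7, 25.9, 42.6 and 13.6 FPKM in Gr-1+ and 83.0, 62.5, 70.9, 55.5 and 63.3 FPKM in Gr-1-, 2.59-fold higher in Gr-1- (adjusted p = 0.00769). Adcy7, an adenylyl cyclase, and Pde8b were 2.57- and 2.42-fold higher in Gr-1-.

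Eicosanoids and related lipid mediators are made from arachidonic acid by cyclooxygenases and lipoxygenases and act through G protein-coupled receptors. Of 29 tested members, 7 were higher in Gr-1+ and 3 in Gr-1-, 34.5% against the background of 14.8%. Tbxas1, thromboxane synthase, was at 13.2, 25, 18.0 and 20.6 FPKM in Gr-1+ and 3.15, 0.784, 1.64, 1.34 and 1.09 FPKM in Gr-1-, 7.92-fold higher in Gr-1+ (adjusted p = 3.3e-05). The cyclooxygenase Ptgs1 was at 2.05 to 3.33 and 0.175 to 0.646 FPKM, 2.71-fold higher in Gr-1+ (adjusted p = 0.00038). Ptgr1, which inactivates leukotriene B4, was at 14.0, 11.0, 11.9 and 10.1 FPKM in Gr-1+ and 1.07, 1.70, 1.81, 1.11 and 1.45 FPKM in Gr-1-, 5.25-fold higher in Gr-1+ (adjusted p = 1.22e-05). Of the receptors, Cysltr1, for cysteinyl leukotrienes, was at 27.8, 17.9, 19.9 and 14.9 FPKM in Gr-1+ and 1.56, 4.46, 2.62, 0.778 and 2.75 FPKM in Gr-1-, 6.43-fold higher in Gr-1+ (adjusted p = 0.000181). Ptafr, for platelet-activating factor, was at 9.83, 11.3, 8.94 and 12 FPKM in Gr-1+ and 1.79, 2.37, 2.20, 1.97 and 2.46 FPKM in Gr-1-, 3.64-fold higher in Gr-1+ (adjusted p = 2.85e-05). No Gr-1- library reached the lowest Gr-1+ library for any of these 5.

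The first enzyme of leukotriene synthesis and its partner lay on opposite sides. Alox5, 5-lipoxygenase, was at 5.02, 7.49, 3.36 and 3.99 FPKM in Gr-1+ and 38.0, 27.5, 34.5, 14.4 and 16.4 FPKM in Gr-1-, 4.40-fold higher in Gr-1- (adjusted p = 0.00102). Alox5ap, the membrane protein that hands arachidonic acid to 5-lipoxygenase, was at 964, 994, 1249 and 733 FPKM in Gr-1+ and 329, 428, 374, 284 and 378 FPKM in Gr-1-, 2.72-fold higher in Gr-1+ (adjusted p = 0.00127). The subsets did not overlap for either gene.

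**Figure D4:**
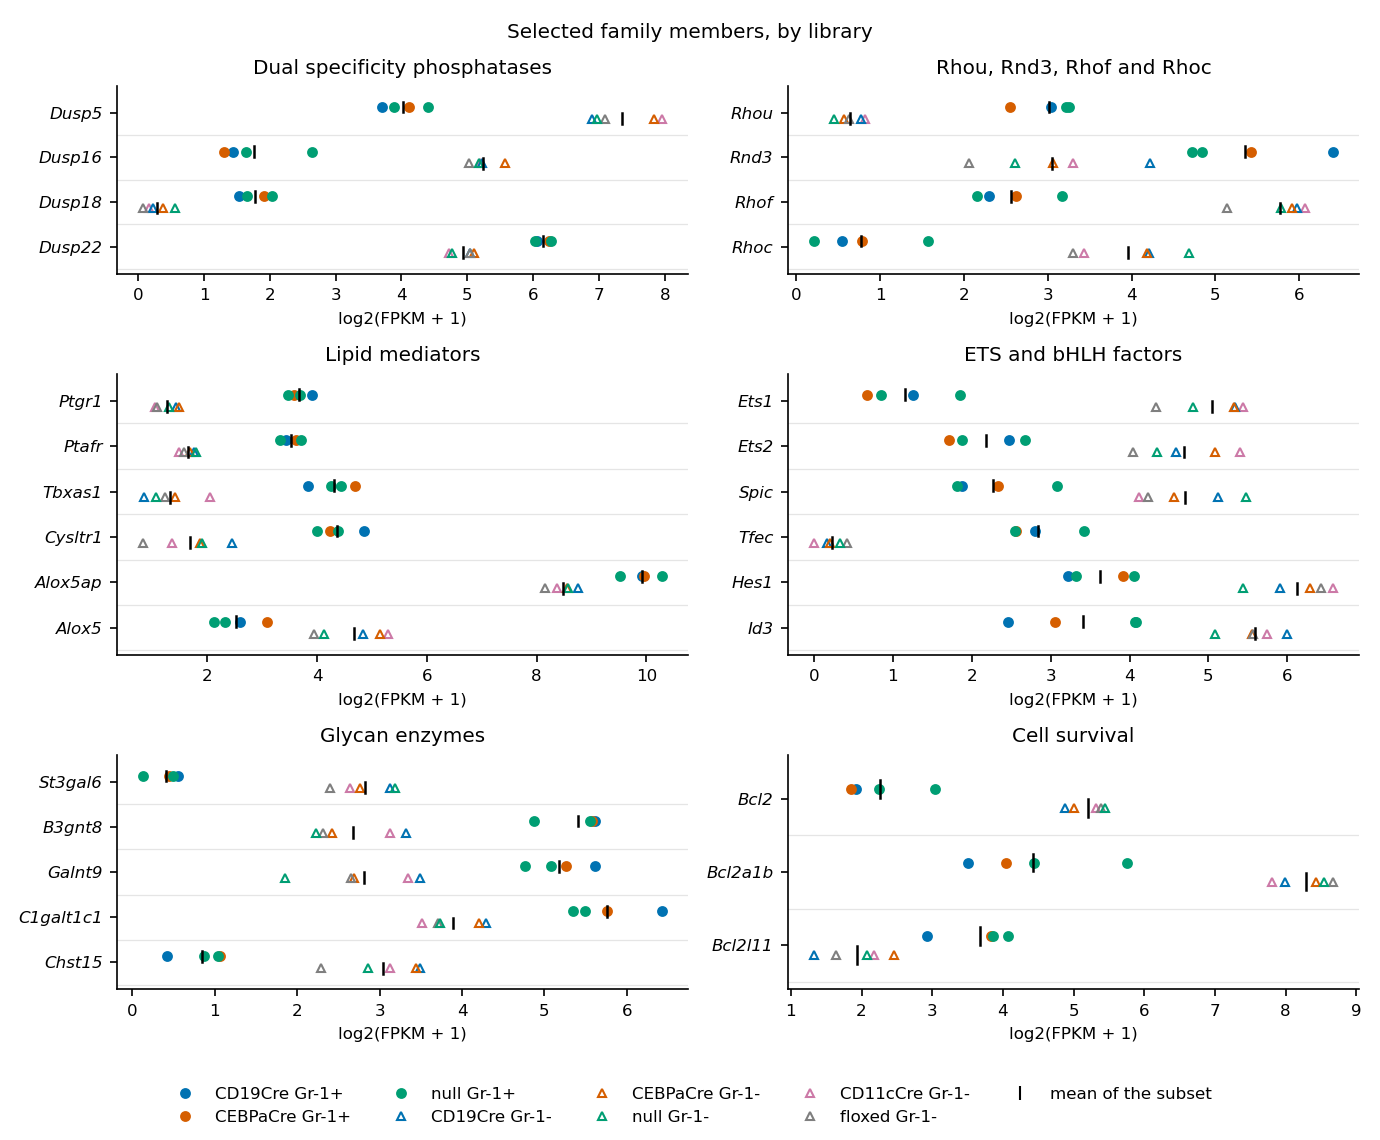
Expression in each library, as log2(FPKM + 1), of members of 5 families and of Rhou, Rnd3, Rhof and Rhoc; circles are Gr-1+ and triangles Gr-1- libraries, colours are genotypes and black bars subset means. Related genes lie on opposite sides, for example Rhou and Rnd3 against Rhof and Rhoc, and Alox5ap against Alox5, and no gene shown has overlapping subsets.

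Enzymes of membrane lipids were also divided. Smpdl3b, a sphingomyelinase-like protein that dampens Toll-like receptor signals, was at 38.3, 44.4, 45.1 and 37.0 FPKM in Gr-1+ and 186, 256, 232, 189 and 171 FPKM in Gr-1-, 4.89-fold higher in Gr-1- (adjusted p = 2.1e-05). Sgms2, a sphingomyelin synthase, was at 16.4, 22.0, 14.7 and 20.7 FPKM in Gr-1+ and 2.69, 4.13, 3.27, 2.30 and 3.82 FPKM in Gr-1-, 4.59-fold higher in Gr-1+ (adjusted p = 3.83e-05), and Cerk, ceramide kinase, was 2.54-fold higher in Gr-1+. Agpat4 and Agpat3, which add the second acyl chain in phospholipid synthesis, were the 2 called members of 23 lipid synthesis genes. Agpat4 was at 39.6, 26.9, 30.4 and 26.7 FPKM in Gr-1+ and 145, 172, 127, 117 and 105 FPKM in Gr-1-, 4.19-fold higher in Gr-1- (adjusted p = 7.46e-05). Agpat3 was at 2.77 to 4.76 and 10.2 to 24.1 FPKM, 4.02-fold higher in Gr-1- (adjusted p = 0.000353). Both were higher in every Gr-1- library than in any Gr-1+ library. Of 27 ABC transporters, 5 were higher in Gr-1+ and 1, Abcg3 (3.92-fold), in Gr-1-.

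Annexins, which bind phospholipids in the presence of calcium, were called toward Gr-1+ in 6 of 9 tested members, 4 of them with each library left out, with a family median of 1.14 on the log2 scale against 0.09 over all tested genes. Anxa1, which limits neutrophil entry into tissue, was at 849, 529, 553 and 558 FPKM in Gr-1+ and 145, 301, 163, 95.9 and 150.4 FPKM in Gr-1-, 3.81-fold higher in Gr-1+ (adjusted p = 0.00168). Anxa2 was at 1383, 995, 928 and 882 FPKM in Gr-1+ and 353, 529.7, 355, 227 and 272 FPKM in Gr-1-, 3.09-fold higher in Gr-1+ (adjusted p = 0.00215), and Anxa4 was 2.96-fold higher in Gr-1+. Among galectins, lectins for galactose, 3 of 5 were called toward Gr-1+. Lgals9, a ligand of TIM-3, was at 117, 159.6, 68.2 and 99.4 FPKM in Gr-1+ and 26.5, 20.5, 18.6, 14.7 and 7.82 FPKM in Gr-1-, 6.15-fold higher in Gr-1+ (adjusted p = 0.000406). Lgals1 was at 274, 449, 212 and 233 FPKM in Gr-1+ and 116, 121, 78.5, 71.7 and 37.7 FPKM in Gr-1-, 3.52-fold higher in Gr-1+ (adjusted p = 0.00535). In both families the CD19Cre Gr-1- library had the highest Gr-1- values of Anxa1, Anxa2, Anxa4 and Lgals1, while Lgals9 was highest in CD11cCre.

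Proteases and their inhibitors also had called members in both directions. Of 13 cathepsins, 3 were higher in Gr-1+ and 2 in Gr-1- (38.5% called, against 14.8% of all tested genes). Ctsc, which activates the serine proteases of granules, was at 2585, 660.5, 626 and 576 FPKM in Gr-1+ and 156, 506, 169.7, 131 and 148 FPKM in Gr-1-, 4.60-fold higher in Gr-1+ (adjusted p = 0.0136), with the CD19Cre library the highest in both subsets. Ctsl and Ctsh were 2.16- and 2.28-fold higher in Gr-1+, and Ctsk, low in both, 2.17-fold higher in Gr-1-. Cst3 (cystatin C), a secreted inhibitor of cathepsins, was at 1568, 2297, 1885 and 1389 FPKM in Gr-1+ and 5022, 4556, 4092, 3797 and 3091 FPKM in Gr-1-, 2.31-fold higher in Gr-1- (adjusted p = 0.00628), and the cytosolic inhibitor Cstb was at 268, 251, 262 and 200.3 FPKM in Gr-1+ and 48.6, 129.6, 64.4, 76.8 and 66.5 FPKM in Gr-1-, 3.30-fold higher in Gr-1+ (adjusted p = 0.0014), so that the 2 inhibitors differed in direction. Stfa2l1, another stefin, was listed at 0 in all 5 Gr-1- libraries and at 3.07, 0.969, 4.02 and 2.87 FPKM in the Gr-1+ libraries. Stfa2l1 is in the neutrophil list, of whose 20 tested genes 15 were called toward Gr-1+ and 1 toward Gr-1-, and whose sum was 799 to 2447 FPKM in Gr-1+ and 99.7 to 225 FPKM in Gr-1-, and the part of those cells was not tested. Most of that sum in Gr-1+ was S100a8 and S100a9.

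Of 6 tested serpins, 2 were called in each direction, all 4 with each library left out. Serpinb6a was at 6.41, 6.19, 10.7 and 6.19 FPKM in Gr-1+ and 37.9, 61.3, 57.2, 35.8 and 73.8 FPKM in Gr-1-, 6.38-fold higher in Gr-1- (adjusted p = 5.71e-05). Serpinb1a, an inhibitor of neutrophil elastase, was at 36.6, 31.3, 21.4 and 26.6 FPKM in Gr-1+ and 4.34, 9.01, 6.88, 3.98 and 5.52 FPKM in Gr-1-, 4.38-fold higher in Gr-1+ (adjusted p = 0.000178). Serpinb9, the inhibitor of granzyme B, was at 0.768, 0.956, 0.147 and 0.441 FPKM in Gr-1+ and 6.44, 2.78, 5.35, 4.33 and 2.84 FPKM in Gr-1-, 3.34-fold higher in Gr-1- (adjusted p = 0.000919), and Serpinb8 was 2.72-fold higher in Gr-1+. Serpinb9 was highest in CD11cCre, the library with the highest natural killer sum, and the part of natural killer cells was not tested.

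Glycan enzymes had 16 of 51 tested members called (31.4%), 10 toward Gr-1+ and 6 toward Gr-1-, and 10 were called without the CEBPaCre Gr-1- library. St3gal6, a sialyltransferase of selectin ligands, was at 0.465, 0.367, 0.406 and 0.0966 FPKM in Gr-1+ and 5.26, 7.77, 5.78, 4.29 and 8.14 FPKM in Gr-1-, 5.35-fold higher in Gr-1- (adjusted p = 2.42e-05). B3gnt8, which extends polylactosamine chains, was at 48.0, 46.7, 45.7 and 28.3 FPKM in Gr-1+ and 7.76, 9.01, 4.34, 3.95 and 3.68 FPKM in Gr-1-, 6.59-fold higher in Gr-1+ (adjusted p = 7.95e-05). Galnt9 and the chaperone C1galt1c1 (Cosmc), both of O-glycan synthesis, were 5.18- and 3.65-fold higher in Gr-1+. For heparan and chondroitin sulfate, 5 of 19 were higher in Gr-1+, among them heparanase (Hpse), at 121, 96.7, 58.0 and 60.8 FPKM in Gr-1+ and 21.7, 32.8, 21.7, 16.8 and 10.4 FPKM in Gr-1-, 3.97-fold higher in Gr-1+ (adjusted p = 0.00192), and the sulfatase Sulf2, 2.93-fold. The sulfotransferase Chst15, at 0.337, 1.09, 1.06 and 0.825 FPKM in Gr-1+ and 7.69, 10.3, 9.86, 3.89 and 6.28 FPKM in Gr-1-, 4.57-fold higher in Gr-1- (adjusted p = 0.000245), and Extl3, 2.60-fold, were higher in Gr-1-.

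The BCL2 family controls cell survival. Bcl2 itself was at 2.77, 2.60, 7.23 and 3.74 FPKM in Gr-1+ and 38.9, 28.5, 31.1, 40.8 and 42.4 FPKM in Gr-1-, 7.69-fold higher in Gr-1- (adjusted p = 3.05e-05). The Bcl2a1 genes, near-identical copies whose single values are uncertain, summed to 28.8 to 131.0 FPKM in the Gr-1+ libraries and 578 to 1072 FPKM in the Gr-1- libraries. Bcl2l11 (Bim), which promotes cell death, went the other way, at 6.57, 13.3, 15.8 and 13.6 FPKM in Gr-1+ and 3.51, 1.51, 4.48, 2.1 and 3.22 FPKM in Gr-1-, 3.34-fold higher in Gr-1+ (adjusted p = 0.00213). Over the list of caspases and BCL2 members, 3 of 34 were higher in Gr-1+ and 6, of which 4 are Bcl2a1 copies, in Gr-1-.

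Among cytokine genes, Ltb was described above, and Tnfsf15 (TL1A) was low and 2.47-fold higher in Gr-1-. Of 22 interleukin receptors, 2 were higher in Gr-1+ and 5 in Gr-1- (31.8% called, against 14.8% of all tested genes). All 7 were called with each library left out. Il6st (gp130), the shared subunit of IL-6 family receptors, was at 41.5, 24.6, 16.5 and 19.3 FPKM in Gr-1+ and 6.35, 8.02, 8.14, 2.24 and 4.62 FPKM in Gr-1-, 3.87-fold higher in Gr-1+ (adjusted p = 0.0031). Il1r2, the decoy receptor for IL-1 and a member of the neutrophil list, was at 10.1, 2.77, 5.77 and 1.53 FPKM in Gr-1+ and 0.0943, 0.61, 0.408, 0.232 and 0.268 FPKM in Gr-1-, 3.94-fold higher in Gr-1+ (adjusted p = 0.00394). Toward Gr-1-, Il21r was at 5.17 to 10.8 and 12.3 to 22.3 FPKM, 2.13-fold higher in Gr-1- (adjusted p = 0.0116), and Il31ra and Il27ra were 3.14- and 2.11-fold higher. Il2rb, a receptor subunit and a member of the natural killer list, was also called and ranged in Gr-1- from 0.735 FPKM in null to 27.5 FPKM in CD11cCre.

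Second messenger and guidance genes added members in both directions. Plcb1, a phospholipase C that makes the signals for calcium release, was at 12.1, 9.89, 11.3 and 12.6 FPKM in Gr-1+ and 3.13, 0.554, 0.554, 0.598 and 1.40 FPKM in Gr-1-, 5.99-fold higher in Gr-1+ (adjusted p = 0.000149). Pik3ap1 (BCAP), an adaptor that links Toll-like receptors to phosphoinositide 3-kinase, was at 51.2, 44.4, 48.3 and 30.6 FPKM in Gr-1+ and 266, 254, 223, 83.3 and 159 FPKM in Gr-1-, 4.18-fold higher in Gr-1- (adjusted p = 0.00189). The calcineurin subunit Ppp3cc, its inhibitor Rcan1 and the calcineurin target Nfatc3 were 2.06-, 3.08- and 2.32-fold higher in Gr-1-, with no overlap. Of 9 semaphorins, plexins and neuropilins, 3 were higher in Gr-1+, among them Sema4a (2.53-fold) and the coreceptor Nrp1 (2.59-fold), and 1, Plxnb3 (2.63-fold), in Gr-1-. Of the secreted matrix proteins in the TGF-beta list, Tgfbi was at 228, 472, 552 and 352 FPKM in Gr-1+ and 72.5, 54.3, 75.4, 40.0 and 103 FPKM in Gr-1-, 5.72-fold higher in Gr-1+ (adjusted p = 0.00038), and Thbs1 (thrombospondin 1) at 3.94 to 26.6 and 0.322 to 0.959 FPKM, 5.82-fold higher in Gr-1+.

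Growth factor pathways held single genes of large difference. Tgfbr3 (betaglycan), a coreceptor for TGF-beta, was at 0.927, 0.505, 0.61 and 1.42 FPKM in Gr-1+ and 27.9, 18.0, 22.5, 7.90 and 12.2 FPKM in Gr-1-, 9.39-fold higher in Gr-1- (adjusted p = 7.18e-05). Wnt6 was at 1.32, 1.09, 2.42 and 1.29 FPKM in Gr-1+ and 11.0, 20.3, 19.9, 19.8 and 10.5 FPKM in Gr-1-, 6.70-fold higher in Gr-1- (adjusted p = 4.27e-05). Tcf7l2, a transcription factor of the Wnt pathway, was at 14.9, 1.69, 6.72 and 4.46 FPKM in Gr-1+ and 31.1, 56.2, 27.5, 35.0 and 33.9 FPKM in Gr-1-, 5.62-fold higher in Gr-1- (adjusted p = 0.00251). Rspo1, a secreted enhancer of Wnt signals, was at 7.6, 4.50, 2.07 and 4.03 FPKM in Gr-1+ and 0.593, 0.183, 0.0357, 0.649 and 0 FPKM in Gr-1-, 4.12-fold higher in Gr-1+ (adjusted p = 0.000775). Of 20 tested Wnt pathway genes, 4 were higher in Gr-1- and 1 in Gr-1+, all with each library left out. Met, the receptor for hepatocyte growth factor, was at 2.07 to 7.89 FPKM in Gr-1+ and 0.307 to 0.583 FPKM in Gr-1-, 3.83-fold higher in Gr-1+ (adjusted p = 0.000843).

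Enzymes of redox and nucleotide handling held several called members. In the glutathione and thioredoxin systems, 7 of 39 were higher in Gr-1+ and 1 in Gr-1- (20.5% called, against 14.8% of all tested genes). Prdx4, a peroxiredoxin of the endoplasmic reticulum, was at 43.7, 37.6, 45.0 and 42.9 FPKM in Gr-1+ and 9.05, 9.73, 8.82, 9.78 and 10.4 FPKM in Gr-1-, 4.10-fold higher in Gr-1+ (adjusted p = 1.47e-05). Gpx3, a secreted glutathione peroxidase, was at 59.5, 25.1, 30.7 and 15.8 FPKM in Gr-1+ and 3.45, 8.79, 2.80, 2.12 and 2.88 FPKM in Gr-1-, 6.62-fold higher in Gr-1+ (adjusted p = 0.000898), and Mgst3 was 4.06-fold higher in Gr-1+. For purines, Aprt, which salvages adenine, was at 159, 167, 192 and 133 FPKM in Gr-1+ and 34.2, 61.1, 38.6, 44.2 and 39.7 FPKM in Gr-1-, 3.72-fold higher in Gr-1+ (adjusted p = 0.000151), and Pnp, purine nucleoside phosphorylase, was 2.86-fold higher in Gr-1+. Ppat, the first enzyme of purine synthesis from simple precursors, was at 1.90, 1.39, 2.22 and 1.76 FPKM in Gr-1+ and 7.06, 7.61, 7.02, 4.0 and 6.48 FPKM in Gr-1-, 2.61-fold higher in Gr-1- (adjusted p = 0.000843). Arg2, the mitochondrial arginase, was at 8.09, 2.01, 9.28 and 3.54 FPKM in Gr-1+ and 0.177, 0.819, 0.384, 0.109 and 0.504 FPKM in Gr-1-, 4.34-fold higher in Gr-1+ (adjusted p = 0.00182), and Paox, which oxidises polyamines made from the product of arginase, was 3.22-fold higher in Gr-1+. Mthfd2, of mitochondrial folate metabolism, was 2.22-fold higher in Gr-1-. Glrx, glutaredoxin, was 5.17-fold higher in Gr-1+.

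Both isocitrate dehydrogenases that make NADPH were higher in Gr-1+, Idh1 at 328, 150.4, 129 and 159.8 FPKM in Gr-1+ and 45.5, 112, 66.7, 35.2 and 50.7 FPKM in Gr-1-, 3.09-fold higher in Gr-1+ (adjusted p = 0.0114). Idh2 was at 21.1, 38.5, 25.1 and 19.6 FPKM in Gr-1+ and 12, 5.57, 11.1, 5.75 and 6.12 FPKM in Gr-1-, 3.01-fold higher in Gr-1+ (adjusted p = 0.00311). They were 2 of 3 called of 29 tricarboxylic acid cycle genes. Ldhb, the lactate dehydrogenase subunit of oxidative tissues, was at 12.1, 22.8, 27.5 and 18.0 FPKM in Gr-1+ and 6.13, 1.65, 2.73, 2.68 and 2.16 FPKM in Gr-1-, 5.30-fold higher in Gr-1+ (adjusted p = 0.00038).

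Of 168 solute carriers, 16 were higher in Gr-1+ and 11 in Gr-1- (16.1%, near the background), but single members differed widely. Slc12a2 (NKCC1), the sodium, potassium and chloride cotransporter, was at 0.245, 0.725, 3.60 and 2.42 FPKM in Gr-1+ and 42.5, 25, 39.0, 23.3 and 38.5 FPKM in Gr-1-, 14.0-fold higher in Gr-1- (adjusted p = 5.51e-05). Slc29a1 (ENT1), which carries adenosine and other nucleosides, was at 29.1, 12.5, 15.7 and 13.9 FPKM in Gr-1+ and 117, 174, 83.2, 57.2 and 69.0 FPKM in Gr-1-, 5.24-fold higher in Gr-1- (adjusted p = 0.000874). Slc11a1 (Nramp1), which exports iron from phagosomes, was at 94.3, 74.0, 113 and 69.6 FPKM in Gr-1+ and 341, 320.1, 233, 186 and 258 FPKM in Gr-1-, 3.01-fold higher in Gr-1- (adjusted p = 0.00115). Slc25a4, the heart type of the mitochondrial ADP and ATP exchanger, was at 88.3, 83.2, 103 and 75.6 FPKM in Gr-1+ and 12.2, 14.7, 12.7, 8.54 and 16.1 FPKM in Gr-1-, 6.48-fold higher in Gr-1+ (adjusted p = 1.47e-05). Slc6a12 and Slc5a11, carriers of betaine and inositol, were below 0.6 FPKM in every Gr-1+ library and at 4.99 to 10.9 and 4.05 to 7.23 FPKM in Gr-1-.

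Membrane traffic and the cell cycle held a few clear members. The SNARE protein Stx3 was at 15.1, 15.8, 14.7 and 13.1 FPKM in Gr-1+ and 2.52, 3.0, 2.65, 2.12 and 2.31 FPKM in Gr-1-, 4.46-fold higher in Gr-1+ (adjusted p = 1.18e-05), Stxbp6 at 6.92 to 18.3 and 0.778 to 1.29 FPKM, 6.21-fold higher in Gr-1+ (adjusted p = 4.13e-05). Vamp5, higher in Gr-1-, was at 4.02, 2.35, 3.59 and 1.39 FPKM in Gr-1+ and 10.8, 43.2, 19.2, 22.3 and 24.1 FPKM in Gr-1-, 6.19-fold higher in Gr-1- (adjusted p = 0.0005). Of 38 Rab GTPases, 18.4% were called, near the 14.8% of all tested genes. Toward Gr-1+ there were 5, among them Rab3d of secretory granules (2.90-fold) and Rab44 (2.48-fold). Toward Gr-1- there were 2, among them Rab19 (3.11-fold). Ccnd2 (cyclin D2), which drives entry into the cell cycle, was at 0.441, 0.201, 1.18 and 0.482 FPKM in Gr-1+ and 11.5, 11.1, 9.57, 12.9 and 21.0 FPKM in Gr-1-, 8.94-fold higher in Gr-1- (adjusted p = 1.67e-05). Ccnd2 was above 9 FPKM in every Gr-1- library and below 1.2 FPKM in every Gr-1+ library. The histone variants H2afz and H1f0 were 2.48- and 3.03-fold higher in Gr-1+.

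In families of the basic machinery few members were called in the first fit. Some of these counts depended strongly on the setting, and the medians of some families had different values in the 3 genotypes. Cytosolic ribosomal proteins had 1 of 84 tested members called, the muscle form Rpl3l, at 1.55, 1.22, 5.39 and 2.57 FPKM in Gr-1+ and 9.78, 8.51, 9.96, 12.2 and 7.68 FPKM in Gr-1-, 3.12-fold higher in Gr-1- (adjusted p = 0.00302). Their median log2 difference was 0.58 in null, 0.71 in CEBPaCre and -0.20 in CD19Cre, against 0.10, 0.05 and 0.05 over all tested genes. Without the CD19Cre Gr-1+ library, which had the lowest share of ribosomal protein genes, 27 of 84 were called and the median was 0.86. The count was 24 with library weights and 2 with genotype as a block. For the respiratory chain and ATP synthase, 7 of 82 were higher in Gr-1+ and none in Gr-1-, with medians of 0.53, 0.64 and 0.13 in null, CEBPaCre and CD19Cre. This count was 2 without the CEBPaCre Gr-1+ library, 3 without null Gr-1+ replicate 1, 3 without the CEBPaCre Gr-1- library, 3 without the null Gr-1- library, 4 without the CD11cCre library and 14 without the CD19Cre Gr-1- library. It was 33 with library weights, 25 with genotype as a block and 20 without both CD19Cre libraries. After quantile normalization it was 14, and without the CD11cCre and floxed libraries 1. Called genes in all numbered 2376, 2712, 1660, 2020 and 965 in these 5 fits. Splicing factors had a median of 0.02 with none of 92 called.

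**Figure D5:**
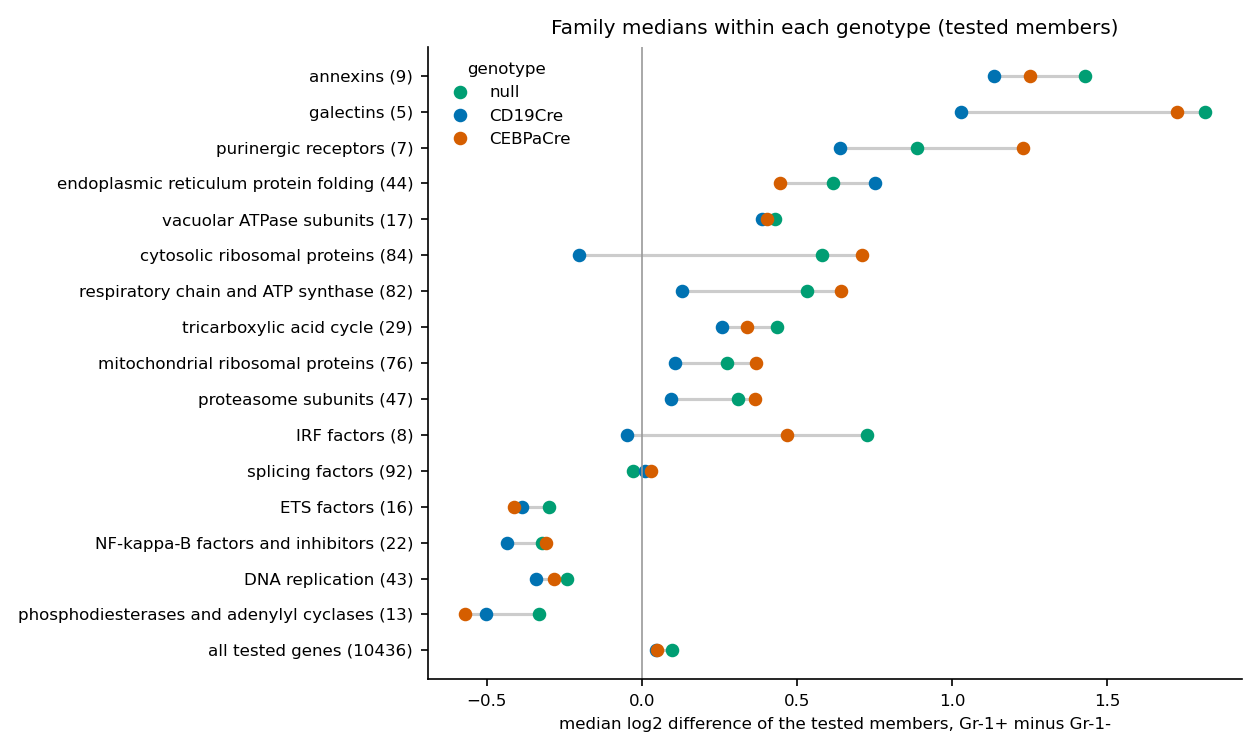
Median log2 difference (Gr-1+ minus Gr-1-) of the tested members of 16 families and of all tested genes, within null (green), CD19Cre (blue) and CEBPaCre (orange). Annexins and galectins lie to the right in all 3 genotypes, and ETS and NF-kappa-B factors to the left, while cytosolic ribosomal proteins are below 0 only in CD19Cre (-0.20 against 0.58 and 0.71).

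Few genes passed a test for a subset difference that varied with genotype. An F-test of the interaction between subset and genotype, whose spread rests on 1 residual degree of freedom and on moderation across genes, called 40 of 10436 genes (0.383%), of which 39 were small RNA genes with values at 0 in some libraries. The other was Pisd-ps1, a pseudogene, with an adjusted p of 0.0406. It was at 37.4, 0.875, 27.8 and 25.8 FPKM in Gr-1+ and 34.3, 0.424, 45.1, 39.3 and 22.0 FPKM in Gr-1-. Its copy Pisd-ps3 was at 1.37, 29.6, 6.00 and 0.172 FPKM in Gr-1+ and 0.348, 46.0, 0.291, 0.0268 and 22.0 FPKM in Gr-1-. The copies were high in different libraries, and their sum was 26.0 to 46.5 FPKM over the 9 libraries. Amd1, among the 5 furthest below the other genotypes in null, was divided likewise: it was at 0.108 FPKM in null Gr-1+ replicate 2 and 0.162 FPKM in CD11cCre, where its copy Amd2 was at 17.6 and 17.2 FPKM, and the sum of both was 14.1 to 24.0 FPKM in all 9.

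Other genes furthest from the remaining genotypes, ranked by value with no test, included Ppp1r18, Hbb-b1, Tug1 and Sdc3. Ppp1r18, a phosphatase 1 regulator of the actin cytoskeleton, was listed at 0 in the CD11cCre and CD19Cre Gr-1- libraries and at 63.8 to 92.2 FPKM in the other 7. Hbb-b1, a beta-globin, was at 0.00424 FPKM in the CD19Cre Gr-1+ library, where its copy Hbb-b2 was also at its lowest, and the erythroid sum ranged from 297 to 2576 FPKM in Gr-1+ and from 503 to 3717 FPKM in Gr-1-. Tug1, a long noncoding RNA, was at 82.1 FPKM in the CD19Cre Gr-1+ library and 14.0 to 32.2 FPKM in the other 8. Sdc3 (syndecan 3), a heparan sulfate carrier, was at 7.12 FPKM in CD19Cre Gr-1+ and 83.7 FPKM in CEBPaCre Gr-1+, whereas CD19Cre and CEBPaCre Gr-1- libraries were at 45.7 and 51.9 FPKM. In null, Ifi27l2a, an interferon-induced gene, was among the 5 furthest above the other genotypes, at 516, 2981, 465 and 1136 FPKM in Gr-1+ and 671, 217, 669, 562 and 55.8 FPKM in Gr-1-, a log2 difference of 3.68 in null, 1.24 in CD19Cre and 2.15 in CEBPaCre. Its null Gr-1- value was the lowest of the 9 libraries, and its CEBPaCre Gr-1+ value the highest.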

How the data were processed

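RNA of 9 libraries of sorted blood monocytes was measured by sequencing. The authors deposited 1 FPKM value per gene and library; per the submitters' processing notes, TopHat2 2.0.8, Cufflinks 2.1.1 and the genome build mm9 were used. No header or label gives read counts. Libraries were grouped by title. FPKM values were transformed to log2(FPKM + 1), and genes that averaged 1 FPKM or more and had a value above 0 in at least 2 libraries were fitted with limma 3.58.1 (R 4.3.3, empirical Bayes with trend), with Benjamini-Hochberg adjustment over all 10436 genes and a threshold of 0.05. The fit was tested on simulated data. The genes named first were the 15 per direction with the largest difference among called genes without overlap, averaging 5 FPKM or more in the higher subset, outside the marker lists; up to 4 called members per family followed, and further called members of families were named after their values were seen, with folds given for genes called with each library left out. A few gene families are not reported here. Families, marker lists and members were chosen with earlier results of these data known. Genes named by genotype were the 5 per direction whose difference within a genotype lay furthest from the other genotypes. Relative depth was read from values under 0.15 FPKM. Of the tested symbols, 9289 matched a current RefSeq symbol, 1047 an older one and 100 none, and 8236 had a promoter entry. Alternatives were other pseudocounts, filters, scalings, library weights, genotype as a block and left-out libraries.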

Additional observations from a re-analysis of the deposited data

Results flagged for a closer look

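For 181 genes of the comparison and 8 genes given by value, each subset was checked for a library that stood apart from the others by the ratio of its gap to the group's range (Dixon's 95% limit). This held in 39 of 378 groups (10.3%). The limit marks about 1 in 20 groups of independent, normally distributed values. It was applied here to FPKM without the log, and genes of a library can vary together. The 10.3% therefore cannot be tested against 1 in 20. The CD19Cre libraries held 23 of the 39. No cause was tested. In what follows each value is set against the range of the other libraries of its subset.

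In the CD19Cre Gr-1- library 14 genes were highest by that measure, 10 of which were higher in Gr-1+ over all libraries. Anxa4 was at 41.2 FPKM against 13.6 to 21.1 FPKM and Bst1 at 3.12 against 0.302 to 1.05 FPKM. Capg was at 91.0 against 17.3 to 29.3 FPKM, Ctsc at 506 against 131 to 169.7 FPKM and Ecm1 at 12.5 against 1.96 to 3.61 FPKM. Gngt2 was at 3028 against 1197 to 1724 FPKM, Gpr160 at 3.42 against 1.13 to 1.37 FPKM and Gpx3 at 8.79 against 2.12 to 3.45 FPKM. H2afz was at 502 against 267 to 319.7 FPKM, Phlda3 at 55.2 against 19.1 to 27.2 FPKM and Rab19 at 54.0 against 30.1 to 35.5 FPKM. Slpi was at 52.5 against 14.0 to 21.9 FPKM, Tarm1 at 1.71 against 0 to 0.406 FPKM and Tcf7l2 at 56.2 against 27.5 to 35.0 FPKM. In the CD19Cre Gr-1+ library 8 genes were highest. Anxa1 was at 849 FPKM against 529 to 558 FPKM, Cebpe at 14.9 against 4.02 to 5.61 FPKM and Ctsc at 2585 against 576 to 660.5 FPKM. Gpr160 was at 27.1 against 8.80 to 11.9 FPKM, Idh1 at 328 against 129 to 159.8 FPKM and Msr1 at 149.8 against 51.2 to 63.6 FPKM. Rgs18 was at 52.6 against 13.7 to 20.2 FPKM and Tug1 at 82.1 against 25.9 to 27.4 FPKM. There 1 gene was lowest. Jdp2 was at 2.69 FPKM against 5.13 to 5.51 FPKM.

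In the CD11cCre Gr-1- library 4 genes were highest. Il2rb was at 27.5 FPKM against 0.735 to 4.99 FPKM, Itgax at 301 against 33.8 to 66.0 FPKM and Ldhb at 6.13 against 1.65 to 2.73 FPKM. Ptgs1 was at 0.646 against 0.175 to 0.298 FPKM. In null Gr-1+ replicate 1 there were 4. Dusp16 was at 5.24 FPKM against 1.47 to 2.11 FPKM, Lilra5 at 8.96 against 3.19 to 4.17 FPKM and Serpinb6a at 10.7 against 6.19 to 6.41 FPKM. Wnt6 was at 2.42 against 1.09 to 1.32 FPKM. In the null Gr-1- library there were 3. Ccnd2 was at 21.0 FPKM against 9.57 to 12.9 FPKM, Mitf at 1.39 against 0.546 to 0.668 FPKM and Pde8b at 6.82 against 2.85 to 3.80 FPKM. In the CEBPaCre Gr-1+ library there were 2. Batf3 was at 32.3 FPKM against 17.7 to 19.6 FPKM and Dusp7 at 36.6 against 24.7 to 26.7 FPKM. Null Gr-1+ replicate 2 was lowest for 2 genes. B3gnt8 was at 28.3 FPKM against 45.7 to 48.0 FPKM and Rgs3 at 24.2 against 31.3 to 32.1 FPKM. The floxed library was lowest for 1. Spag11b was at 3.36 FPKM against 9.82 to 12.4 FPKM.

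The subset difference of Pisd-ps1 varied with genotype in limma's F-test (adjusted p = 0.0406), on 1 residual degree of freedom. With its copy Pisd-ps3 it summed to 26.0 to 46.5 FPKM in the 9 libraries.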

How the results depend on the processing

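Of 181 genes named with a subset difference, 177 were called. These were chosen among genes called with each of the 9 libraries left out in turn, which held for 982 of the 1544 called genes (63.6%), so that their own count is no measure of stability. Under every setting that tests them, 166 were called. Over 3405 pairs of a gene and a setting, none reversed direction, 14 lost the call (10 of them Adcy7, Anxa4, Cst3, Ctsc, Ctsh, Ear12, Idh1, Lck, Ptk2b and Spib without the CD11cCre and floxed libraries) and 3 gained it. The count of called genes, 1544, was 2376 with library weights, 2712 with genotype as a block and 965 without the CD11cCre and floxed libraries, which leaves 7 libraries. Genes called toward Gr-1+, 923, numbered 1672 with the genotype block and 516 without those 2 libraries. Genes called toward Gr-1-, 621, numbered 956 after quantile normalization, 950 after median ratio scaling, 1024 with library weights and 1040 with the genotype block. With 1 library left out, the counts were 1128 to 1578 in all, 628 to 1015 toward Gr-1+ and 450 to 688 toward Gr-1-. The number of lists with at least 2 times the background share, 21, was 14 with library weights and 10 with the block, where the background itself was higher. Lists with called members only toward Gr-1+, 23, numbered 15 after either scaling and with library weights, and 15 to 28 over all alternatives. The 40 interaction calls became 0 in limma with a pseudocount of 0.1 (247 at an unadjusted p under 0.05) and 0 after quantile normalization (240). For changes of scaling or block the cause was not tested. The genotype block compares the subsets within null, CD19Cre and CEBPaCre. By replicate number, no paired analysis was possible because the null Gr-1+ libraries carry replicate numbers 1 and 2 and the null Gr-1- library only number 1, so that the subsets share fewer than 2 numbers. Without counts, the depth behind low values is known only roughly and in relative terms. In simulated data of the same size, 39.5% of genes changed 2-fold and 89.1% of genes changed 4-fold were called. The changed genes there were drawn without the lowest of the tested genes. The simulated spread was independent between genes, with no shift shared by a library. These shares therefore do not carry over to low genes or to libraries with shared shifts.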

Other observations

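Values of near-identical copies were also added up, for copies chosen after their values were seen. The 5 Ear genes summed to 41.4, 103, 366 and 179 FPKM in the Gr-1+ libraries and to 993, 542, 1224, 1220 and 1492 FPKM in the Gr-1- libraries, so that the sum, like Ear12 alone, was lowest in the CD19Cre Gr-1+ library. Rpl34 with its pseudogene Rpl34-ps1 summed to 220 FPKM in the CD19Cre Gr-1+ library, the lowest of the 9, and to 254 to 652 FPKM in the others. Beta-globins Hbb-b1 and Hbb-b2 summed to 61.4 FPKM in that library and to 196 to 1310 FPKM in the others, with both extremes of the others in Gr-1- libraries.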
